A study of Mus musculus with 6 samples.

Results

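The genes described here are 9 members of the TGF-beta and activin pathway: the ligands Tgfb1, Tgfb2, Tgfb3 and Inhba, the receptors Tgfbr1 and Tgfbr2, the inhibitors Fst and Smad7, and the target gene Tgfbi. They were taken by symbol from the 33184 genes of the deposited table, by a rule that sets no threshold on their values but was written with earlier results of these data known, and all 9 passed the filter on low values, which kept 16005 genes. RNA-seq was performed on wound tissues of db/db mice, a diabetic line that lacks the functional leptin receptor, after a round skin wound 0.6 cm across had been made through the epidermis and dermis. All the mice carried the db/db genotype and all received an siRNA by injection around the wound 1 day after injury (dpi1), a control siRNA in the NC group and siRNAs against SFRP2 in the SFRP2-siRNA group. Wound tissues were collected at dpi4 by the treatment protocol, while the sample titles carry day 3. There were 3 libraries per group, and neither the age and sex of the mice nor whether each library came from a separate mouse was given in the sources used here, so the p-values measure the spread between these libraries only. In the titles the treated samples are siRNA-1, siRNA-2 and siRNA-3. Since the siRNA sequences listed with the study carry these same names, each treated library may stand for another sequence, but no source says so.

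TGF-beta ligands are secreted in a latent form and, once activated, bind a complex of the type II receptor TGFBR2 and the type I receptor TGFBR1, which phosphorylates Smad proteins that enter the nucleus and act on target genes. Activin A, a dimer of the Inhba product, signals through its own receptors to the same Smads. In skin wounds, platelets, macrophages, fibroblasts and keratinocytes release these ligands, and the pathway is known for its part in matrix deposition, wound contraction and the control of inflammation.

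The RNA of the targeted gene did not follow the label. By immunofluorescence staining, the study reported less SFRP2 protein at dpi3 in wounds of diabetic mice given SFRP2 siRNAs. Sfrp2 measured 11.6, 40.6 and 14.1 FPKM (fragments per kilobase of gene, scaled to library depth) in NC libraries 1, 2 and 3, and, in the libraries labelled SFRP2-siRNA, 50.6, 54.6 and 55.2 FPKM. Every library labelled SFRP2-siRNA was thus above every NC library, with a log2 fold change of 1.45 (SE 0.43, limma adjusted p = 0.518, n = 3 per group). Here and throughout, a log2 fold change is SFRP2-siRNA minus NC on the log2(FPKM + 1) scale, and the directions below are drawn between libraries so labelled. The libraries held between 42.9 and 47.1 M reads (M, mega), with 26081 to 27189 genes above 0. The 13 mitochondrially encoded genes took 34.5%, 21.4% and 16.8% of all FPKM in the NC libraries and 15.9%, 11.5% and 13.4% in the others. The FPKM of a library did not sum to a constant, and the sum was highest in NC library 1. FPKM outside these genes was lowest in NC libraries 1 and 2, where the share was largest. It was highest in SFRP2-siRNA library 2, where the share was smallest. Between NC libraries 1 and 2, library 1 held more FPKM outside these genes despite its larger share. The part of this share in the results was not tested. Hair follicle markers summed to 18.5 FPKM in SFRP2-siRNA library 1, against 2125 to 4193 in the other 5 libraries, so that library stood apart.

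With limma on log2(FPKM + 1), no gene had both an adjusted p under 0.05 and an absolute log2 fold change above 1. These are the cut-offs of the study, which applied them with DESeq2, a test on counts, and reported genes changed in both directions. Here 0 of the 9 genes were called against a background of 0% of the 16005 genes tested. The smallest limma adjusted p of any gene was 0.518, and 1533 genes had an unadjusted p under 0.05. The 9 fitted log2 fold changes were all above 0, as were those of 11491 of the 16005 genes. Their median was 0.34, beside a median of 0.13 over all genes, and 7 of the 9 lay above that median. In 3 of the 9 genes, Tgfb2, Tgfb3 and Fst, all 3 libraries labelled SFRP2-siRNA were above all 3 NC libraries, where 13.9% of all genes did so. In none of the 9 were they all below, where 3.92% of all genes were. The split of such genes over the whole table was 2226 higher and 628 lower in the deposited values, and 886 higher and 1227 lower after median-of-ratios scaling, under which 0 of the 9 genes stood apart. Tgfbr2 and Tgfbi were the 2 of 9 with an unadjusted p under 0.05 and a higher value, beside 6.72% of all genes.

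**Figure D1:**
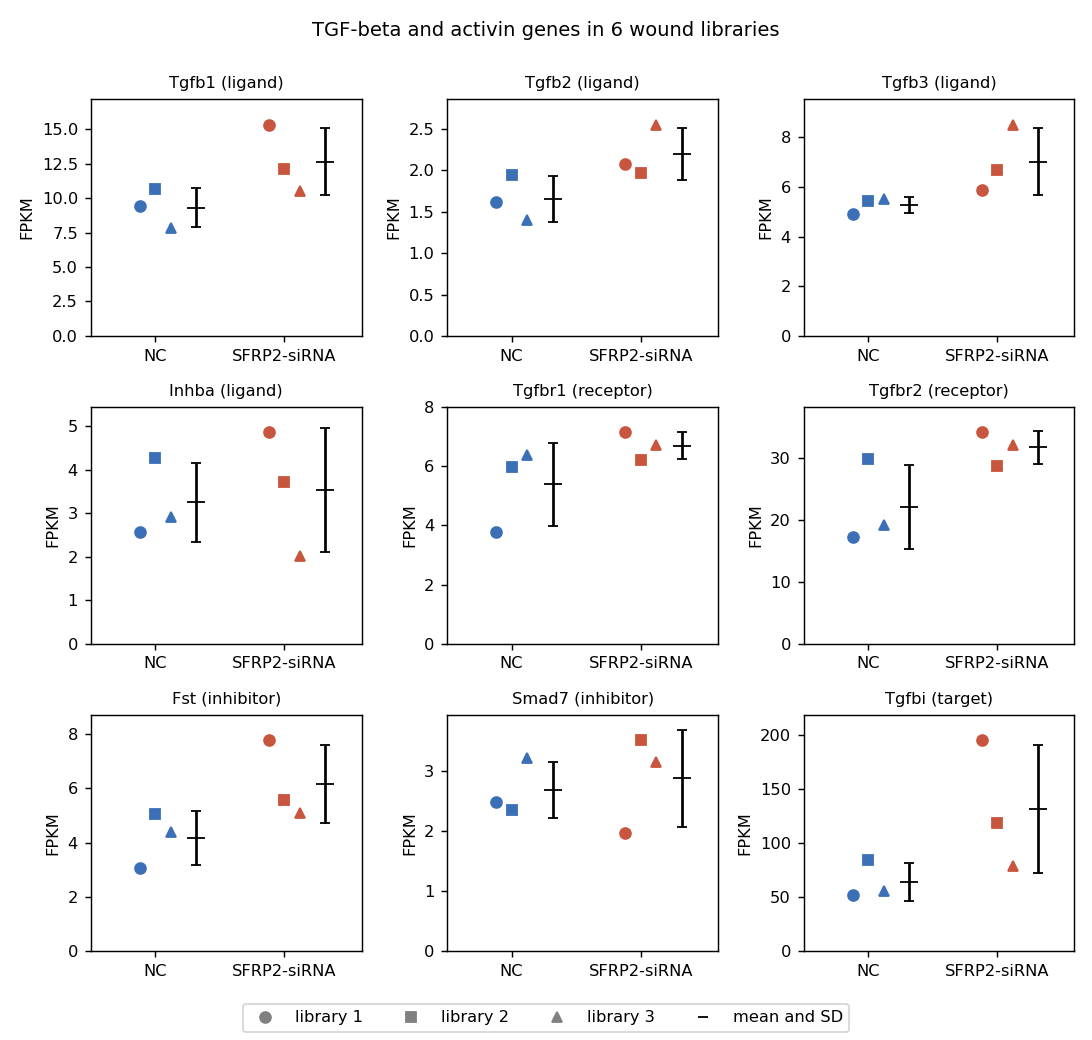
FPKM (y axis, from 0) of each of the 9 genes in the 3 NC libraries (blue) and the 3 libraries labelled SFRP2-siRNA (red), with circle, square and triangle for libraries 1, 2 and 3 and the black bar for the mean and SD. The groups are apart for Tgfb2, Tgfb3 and Fst, and overlap in the other 6 panels. Tgfbi reaches 196 FPKM in SFRP2-siRNA library 1.

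The levels covered a wide range. By the mean of the 6 libraries, Tgfbi was highest at 97.7 FPKM, followed by Tgfbr2 at 26.9 and Tgfb1 at 11.0 FPKM, and these 3 kept that order in 6 of 6 libraries. Below them lay Tgfb3 at 6.16, Tgfbr1 at 6.04 and Fst at 5.15 FPKM. Tgfb3 was above Tgfbr1 in 3 of 6 libraries and Tgfbr1 above Fst in 5 of 6, so these neighbours could not be ordered beyond their spread. Inhba, at 3.39 FPKM, was below Fst in 6 of 6 libraries. Smad7 at 2.79 and Tgfb2 at 1.93 FPKM closed the order, with Inhba above Smad7 in 4 of 6 libraries and Smad7 above Tgfb2 in 5 of 6. From Tgfb1 downward, the ranges over the 6 libraries overlapped between each gene and the next.

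The promoters of Tgfb1, Tgfb2 and Tgfbi are shown because they belong to the TGF-beta ligand with the highest level, the one with the lowest and the only target among the 9 genes. Each is the 250 bases before the gene start on the gene's strand, from RefSeq on mouse build GRCm38.p6, in a table that held 6 of the 9 genes, and capitals mark matches to the 6 motifs searched on both strands, which are spelled out after the sequences.
Tgfb1, chr7:25686752-25687001, plus strand: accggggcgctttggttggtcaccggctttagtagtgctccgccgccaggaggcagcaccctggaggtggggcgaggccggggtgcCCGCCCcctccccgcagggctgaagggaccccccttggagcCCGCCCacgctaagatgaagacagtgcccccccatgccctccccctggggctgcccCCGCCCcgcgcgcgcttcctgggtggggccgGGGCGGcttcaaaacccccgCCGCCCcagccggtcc
Tgfb2, chr1:186705990-186706239, minus strand: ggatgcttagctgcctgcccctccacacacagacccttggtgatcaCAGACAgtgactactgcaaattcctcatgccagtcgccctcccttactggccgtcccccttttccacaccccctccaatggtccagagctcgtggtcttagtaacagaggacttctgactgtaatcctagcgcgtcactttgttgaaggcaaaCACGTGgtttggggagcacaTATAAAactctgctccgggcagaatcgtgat
Tgfbi, chr13:56609336-56609585, plus strand: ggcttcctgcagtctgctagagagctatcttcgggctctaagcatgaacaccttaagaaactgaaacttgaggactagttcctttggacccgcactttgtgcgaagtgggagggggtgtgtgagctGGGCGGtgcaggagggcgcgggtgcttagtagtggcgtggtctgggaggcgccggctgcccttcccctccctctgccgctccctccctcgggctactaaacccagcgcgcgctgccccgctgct
In these windows the G and C content was 75.2% for Tgfb1, 53.6% for Tgfb2 and 62.4% for Tgfbi. The Tgfb1 window held 5 matches to GGGCGG, the core of a GC box, and the Tgfbi window held 1, where 32.7% of the 32851 promoters in the table held any. The Tgfb2 window held TATAAA, the TATA box core, 31 to 26 bases before the start, and 12.4% of promoters held it. It also held CACGTG, an E-box, at 51 to 46 bases and CAGACA, a Smad-binding element, at 204 to 199 bases before the start, beside 6.02% and 17.1% of promoters. GTCTAGAC, the palindromic Smad element, and TGANTCA, the AP-1 site, had no match in the 3 windows, and 0.167% and 6.75% of promoters held them. A match describes the letters of the window only, and binding was not measured.

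Tgfb1 encodes TGF-beta 1, the isoform stored by platelets and released by macrophages. It measured 9.40, 10.7 and 7.83 FPKM in the NC libraries and, in the libraries labelled SFRP2-siRNA, 15.3, 12.1 and 10.5 FPKM. The groups overlapped, as SFRP2-siRNA library 3 was just below NC library 2. With means of 9.29 ± 1.41 in NC and 12.6 ± 2.45 FPKM in SFRP2-siRNA (SD, n = 3 each), the fitted log2 fold change came to 0.40 (SE 0.18, 95% interval -0.03 to 0.83, limma adjusted p = 0.520, exact permutation p = 0.2), and 0.26 without SFRP2-siRNA library 1. For 3 against 3 libraries the smallest two-sided exact p is 0.1, so no single gene could reach 0.05 in that test.

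Tgfb2, the isoform with the lowest level of the 3, measured 1.62, 1.95 and 1.40 FPKM in the NC libraries and 2.08, 1.97 and 2.55 FPKM in the others. The groups did not overlap, but the lowest library labelled SFRP2-siRNA was only 1.08% above the highest NC library. The log2 fold change was 0.27 (SE 0.13, 95% interval -0.05 to 0.59, limma adjusted p = 0.524, exact permutation p = 0.1). Its values rested on 372 to 697 reads a library, the fewest reads of the ligands.

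Tgfb3, an isoform linked to scar-poor repair in fetal skin, measured 4.92, 5.44 and 5.51 FPKM in the NC libraries and, in the libraries labelled SFRP2-siRNA, 5.88, 6.69 and 8.52 FPKM. The groups stood 6.75% apart, the widest gap of the 3 genes that did not overlap, with SFRP2-siRNA library 3 the highest. With means of 5.29 ± 0.32 in NC and 7.03 ± 1.35 FPKM in SFRP2-siRNA (SD, n = 3 each), the fitted log2 fold change came to 0.34 (SE 0.15, 95% interval -0.02 to 0.70, limma adjusted p = 0.520, exact permutation p = 0.1), and 0.21 without SFRP2-siRNA library 3. In the GENCODE vM21 annotation, 12.4% of its exonic bases are shared with another gene, so reads there cannot be assigned to it alone.

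The 3 TGF-beta isoforms together, a sum added after seeing the data, came to 15.9, 18.0 and 14.7 FPKM in the NC libraries and 23.3, 20.8 and 21.6 FPKM in the others. This sum did not overlap between the groups in the deposited values or after median-of-ratios scaling (18.9, 18.3 and 14.2 against 22.2, 19.7 and 19.8), and it did overlap when libraries were set to equal sums without mitochondrially encoded genes (16.8, 19.3 and 14.6 against 23.5, 19.1 and 21.0). The makeup of the sum kept its order in each library: Tgfb1 held 48.7% to 65.8%, Tgfb3 25.3% to 39.5% and Tgfb2 8.92% to 11.8%. The lowest Tgfb1 share and the highest Tgfb1 share were both in the group labelled SFRP2-siRNA, in libraries 3 and 1.

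Inhba encodes the activin A subunit, an early response gene of wounded skin. It measured 2.56, 4.28 and 2.90 FPKM in the NC libraries and, in the libraries labelled SFRP2-siRNA, 4.86, 3.73 and 2.02 FPKM. The highest and the lowest library were thus both in the latter group. The log2 fold change was 0.06 (SE 0.27, limma adjusted p = 0.920, exact permutation p = 0.9), with a 95% interval of -0.59 to 0.71 that leaves either direction possible, and it was below 0 after median-of-ratios scaling (-0.05).

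Tgfbr1, the type I receptor kinase, measured 3.78, 5.99 and 6.39 FPKM in the NC libraries and 7.15, 6.23 and 6.73 FPKM in the others. NC library 1 lay below the other 5, and NC library 3 was above SFRP2-siRNA library 2, so the groups overlapped. The log2 fold change was 0.29 (SE 0.19, 95% interval -0.15 to 0.74, limma adjusted p = 0.561, exact permutation p = 0.2), and it was 0.10 without NC library 1. That is the library with 34.5% of FPKM in mitochondrially encoded genes.

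Tgfbr2, the type II receptor that binds the ligand, measured 17.2, 29.8 and 19.1 FPKM in the NC libraries and, in the libraries labelled SFRP2-siRNA, 34.1, 28.7 and 32.1 FPKM. NC library 2 lay among the latter, and the other 2 NC libraries were lower. With means of 22.1 ± 6.78 in NC and 31.6 ± 2.72 FPKM in SFRP2-siRNA (SD, n = 3 each), the fitted log2 fold change came to 0.54 (SE 0.22, 95% interval 0.01 to 1.06, limma adjusted p = 0.518, exact permutation p = 0.2). With 1 library left out, it ran from 0.39 (without NC library 1) to 0.76 (without NC library 2).

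Fst encodes follistatin, which binds activin and blocks it. It measured 3.06, 5.05 and 4.39 FPKM in the NC libraries and 7.77, 5.56 and 5.08 FPKM in the others. The groups did not overlap by a margin of 0.72% between NC library 2 and SFRP2-siRNA library 3, and SFRP2-siRNA library 1 stood highest. With means of 4.17 ± 1.01 in NC and 6.14 ± 1.44 FPKM in SFRP2-siRNA (SD, n = 3 each), the fitted log2 fold change came to 0.47 (SE 0.21, 95% interval -0.03 to 0.96, limma adjusted p = 0.520, exact permutation p = 0.1). Without NC library 1 the log2 fold change was 0.30.

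Smad7 encodes the inhibitory Smad that the pathway itself induces and that blocks the type I receptor. It measured 2.50, 2.36 and 3.22 FPKM in the NC libraries and, in the libraries labelled SFRP2-siRNA, 1.98, 3.53 and 3.15 FPKM. Here SFRP2-siRNA library 1, the highest for Tgfb1, Inhba, Tgfbr1, Tgfbr2, Fst and Tgfbi, was the lowest of the 6. The log2 fold change was 0.06 (SE 0.19, 95% interval -0.39 to 0.51, limma adjusted p = 0.891, exact permutation p = 0.9), and it was below 0 after median-of-ratios scaling (-0.06).

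Tgfbi, a secreted matrix protein named for its induction by TGF-beta and also made by macrophages, had the largest difference of the 9 genes. It measured 51.9, 84.6 and 55.7 FPKM in the NC libraries and, in the libraries labelled SFRP2-siRNA, 196, 119 and 79.2 FPKM. The groups overlapped, as SFRP2-siRNA library 3 was below NC library 2, while SFRP2-siRNA libraries 1 and 2 were above all others. Mean levels of 64.1 ± 17.9 FPKM in NC and 131 ± 59.2 FPKM in SFRP2-siRNA (SD, n = 3 each) gave a 2.05-fold ratio. The log2 fold change was 0.96 (SE 0.36, 95% interval 0.11 to 1.81, limma adjusted p = 0.518, exact permutation p = 0.2), from 8633 to 31678 reads a library. It was 0.63 without SFRP2-siRNA library 1 and 1.27 without SFRP2-siRNA library 3.

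**Figure D2:**
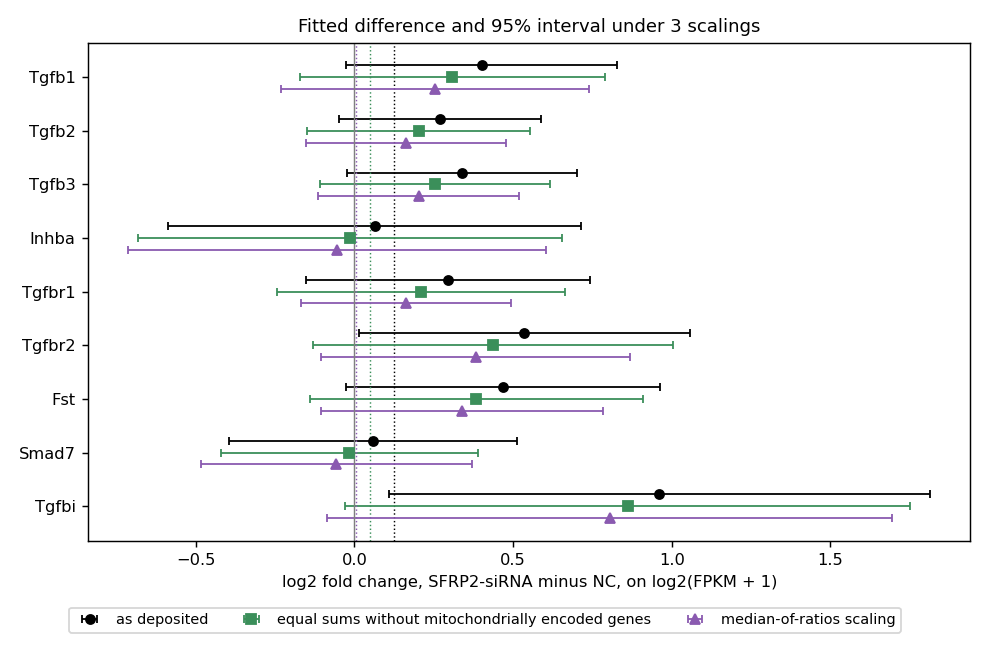
Log2 fold change (x axis, SFRP2-siRNA minus NC on the log2(FPKM + 1) scale) of the 9 genes with its 95% interval, as deposited (black), with equal sums without mitochondrially encoded genes (green) and with median-of-ratios scaling (purple), where dotted lines give the median of all genes under each. In the deposited values only the intervals of Tgfbr2 and Tgfbi lie above 0, and after median-of-ratios scaling all 9 intervals hold 0.

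The scale of the libraries moved these values together. The median log2 fold change over all genes was 0.13 in the deposited values, 0.05 with equal sums without mitochondrially encoded genes and 0.005 after median-of-ratios scaling, and the median of the 9 genes was 0.34, 0.25 and 0.20. Among the 9 genes, Tgfbi stayed at the top, with 0.80 after median-of-ratios scaling, and Tgfbr2 next with 0.38. Genes above 0 numbered 9 of 9 in the deposited values and 7 of 9 after that scaling, Inhba and Smad7 being the other two.

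Ratios of a pair of genes within a library do not depend on the scaling, and 6 were tested with a two-sided exact permutation of the libraries. The log2 ratio of Inhba to Fst, ligand to its binding inhibitor, was -0.26, -0.24 and -0.60 in the NC libraries and -0.68, -0.58 and -1.33 in the libraries labelled SFRP2-siRNA. Fst exceeded Inhba in all 6 libraries. Inhbb, the gene of another activin subunit, was above Fst in all 6, at 5.79 to 12.2 FPKM. For the ratio of Inhba to Fst the groups overlapped through NC library 3. The difference was -0.50 (exact permutation p = 0.2, Benjamini-Hochberg adjusted over the 6 ratios 0.6), and -0.26 without SFRP2-siRNA library 3. The log2 ratio of Tgfbi to Tgfb1, target to ligand, was 2.46, 2.99 and 2.83 in the NC libraries and 3.67, 3.30 and 2.91 in the others, a difference of 0.53 with overlap (exact permutation p = 0.2, adjusted 0.6), which was 0.35 without SFRP2-siRNA library 1. For Tgfb1 to Tgfb2 the values were 2.54, 2.45 and 2.48 against 2.88, 2.62 and 2.04, with a difference of 0.03 and a wider spread in the group labelled SFRP2-siRNA. The differences of Tgfb1 to Tgfb3 (0.04), Tgfbr1 to Tgfbr2 (-0.21) and Smad7 to Tgfbr1 (-0.28) were also within overlapping groups. No ratio separated the groups.

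**Figure D3:**
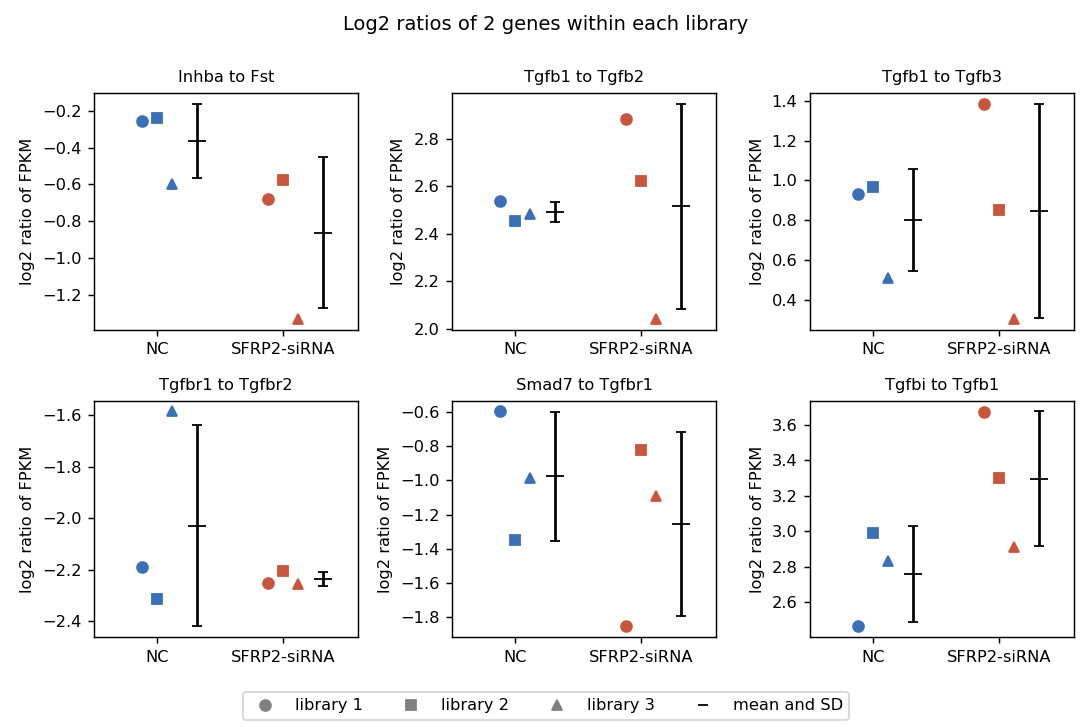
Log2 ratio of FPKM (y axis) of 6 gene pairs in each NC library (blue) and each library labelled SFRP2-siRNA (red), with circle, square and triangle for libraries 1, 2 and 3 and the black bar for the mean and SD. The groups overlap in all 6 panels, and Inhba to Fst lies below 0 in every library.

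Other genes of the pathway were taken from lists written by role. Of 61 further TGF-beta and activin genes listed, 55 passed the filter, 41 with a log2 fold change above 0 and 14 below, with a median of 0.16 beside 0.13 for all genes. None was called, and the groups did not overlap for 8 that were higher and 2 that were lower in the libraries labelled SFRP2-siRNA, shares to be read beside the 13.9% and 3.92% of all genes. By role, and counting the 9 genes with the rest, the median log2 fold change was 0.27 for the 9 ligands kept and 0.11 for 11 genes of latency and activation. It was 0.20 for 10 receptors and co-receptors and 0.07 for 12 inhibitors and feedback genes. The list of receptor Smads and Smad4 held 4 genes, Smad2, Smad3, Smad4 and Zfyve9, which is not a Smad, with a median of 0.10. The 18 targets had the highest median, 0.67, with 16 above 0 and 5 apart. The BMP branch, the sister pathway that uses other Smads, had 14 genes kept, a median of 0.08 and 2 genes apart.

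The targets named by rule were 4 matrix genes of fibroblasts. Cthrc1, a secreted protein of injured and matrix-forming tissue, measured 25.0, 55.1 and 21.3 FPKM in the NC libraries and 68.5, 78.7 and 73.1 FPKM in the others, a log2 fold change of 1.22 (SE 0.34, limma adjusted p = 0.518). Col1a1, the main chain of type I collagen, measured 346, 627 and 254 FPKM against 755, 691 and 690 FPKM, which gave 0.90 as the log2 fold change (SE 0.35, limma adjusted p = 0.518). Col1a2 measured 119, 282 and 134 FPKM against 326, 331 and 307 FPKM (log2 fold change 0.95), and Col3a1, of type III collagen, 235, 718 and 360 FPKM against 744, 807 and 773 FPKM (log2 fold change 0.98). In each of the 4, NC library 2 stood well above the other NC libraries and below the lowest library labelled SFRP2-siRNA.

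The remaining genes that stood apart are named here after their values were seen. Postn, which encodes periostin, was the other target, with a log2 fold change of 0.65 (SE 0.26). Gdf11, an activin-like ligand, was at 0.45, the receptor Acvrl1 at 0.43 and Ski, a corepressor of Smads, at 0.24. The genes that stood lower were Ltbp3, a latent TGF-beta binding protein, at -0.32 and Pmepa1, a feedback inhibitor that TGF-beta induces, at -0.45 (31.3 ± 3.52 against 24.8 ± 2.70 FPKM and 27.0 ± 2.01 against 19.5 ± 1.98 FPKM, SD, n = 3 each). In the BMP branch they were Id2, a target of BMP signalling, at 0.49 and Chrd, the BMP antagonist chordin, at 0.40. Each had a limma adjusted p of 0.518 to 0.536. Common readouts of the pathway, also picked after their values were seen, gave 0.21 for Ccn2 (SE 0.21) and 0.11 for Acta2 (SE 0.17), neither of them called. Tagln was listed at 0.15 to 0.49 FPKM, and 67.9% of its exonic bases are shared with another gene.

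**Figure D4:**
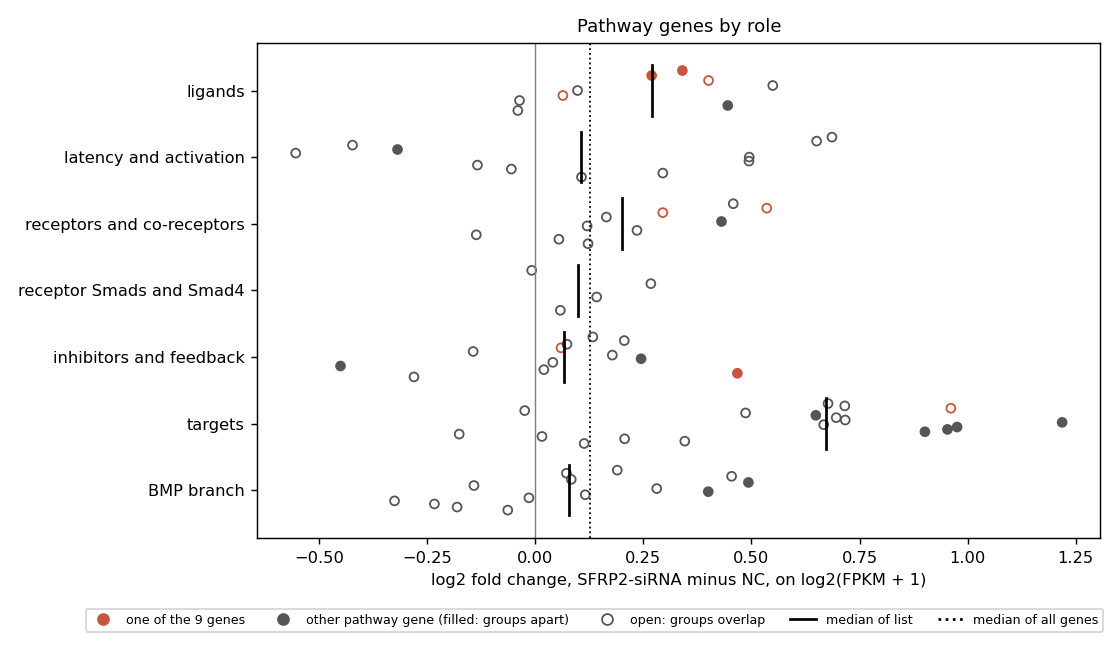
Log2 fold change (x axis, SFRP2-siRNA minus NC on the log2(FPKM + 1) scale) of each pathway gene kept, by role, with the 9 genes in red, filled points where the groups do not overlap, a bar at the median of each list and a dotted line at the median of all genes. The targets lie farthest to the right, with a median of 0.67, and Tgfbi is among the 4 highest of them.

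Markers of some cell types were also higher in the libraries labelled SFRP2-siRNA. Wound tissue is a mixture, so in these bulk samples fewer cells of a type and less RNA per cell cannot be told apart. The 12 macrophage markers summed to 700, 998 and 645 FPKM in the NC libraries and 1452, 1149 and 1057 FPKM in the others, all 12 with a log2 fold change above 0, 4 of them apart. The 9 fibroblast markers summed to 385, 623 and 484 FPKM and to 764, 738 and 704 FPKM, all 9 above 0, 6 of them apart. These counts stand beside 11491 of 16005 genes above 0 and 13.9% of all genes apart and higher, a share that was 5.54% after median-of-ratios scaling. In the deposited values the sums of these lists did not overlap between the groups, nor did those of the platelet list (155, 133 and 115 against 347, 181 and 189 FPKM). After median-of-ratios scaling the macrophage and platelet sums overlapped, while the fibroblast sums stayed apart. In the platelet list 4 of 6 markers were above 0 and 2 below, with a median of 0.22, and Pf4 supplied most of the sum (129, 117 and 94.2 against 302, 153 and 155 FPKM). SFRP2-siRNA library 1 was highest in the sums of macrophage, fibroblast and platelet markers, as it was for Tgfb1 and Tgfbi. It was also highest in the keratinocyte, endothelial, adipocyte and T cell sums, so this was not particular to those lists. Tgfb2 and Tgfb3 were instead highest in SFRP2-siRNA library 3, where the macrophage and fibroblast sums were the lowest of that group. NC library 2 was the highest NC library in the macrophage and fibroblast sums, as it was for Tgfb1, Tgfbr2, Fst and Tgfbi. The same held for the endothelial, wound-edge keratinocyte and T cell sums. The part of these cell types in the values of the 9 genes was not tested.

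The sums of the other cell type lists overlapped between the groups. All 8 neutrophil markers (median log2 fold change 0.81) and all 8 skeletal muscle markers (median 0.67) were also above 0. Neutrophil markers summed to 1774, 1711 and 1148 FPKM against 4635, 5563 and 997 FPKM, endothelial markers to 85.5, 95.4 and 64.0 against 108, 76.5 and 64.0 FPKM, and keratinocyte markers to 3727, 4838 and 6497 against 6733, 5744 and 3482 FPKM. Skeletal muscle markers summed to 3380, 4946 and 6871 against 4429, 6950 and 12966 FPKM, and adipocyte markers to 907, 898 and 1180 against 1329, 747 and 576 FPKM. Wound-edge keratinocyte markers summed to 1530, 2810 and 2715 against 2367, 2928 and 1311 FPKM. The 7 T cell markers summed to only 3.52 to 6.41 FPKM, with Cd3d, Cd3e, Cd8a and Foxp3 under the filter. Of the 3 kept, Cd4 lay at 1.23 to 2.13 FPKM and Trac at 0.75 to 2.42 FPKM with overlapping groups, and Cd3g was apart and higher, at 0.42 to 0.47 against 0.58 to 1.07 FPKM. No list held a marker at 0 in all 6 libraries, and the keratinocyte and fibroblast markers of skin were present in each library.

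**Figure D5:**
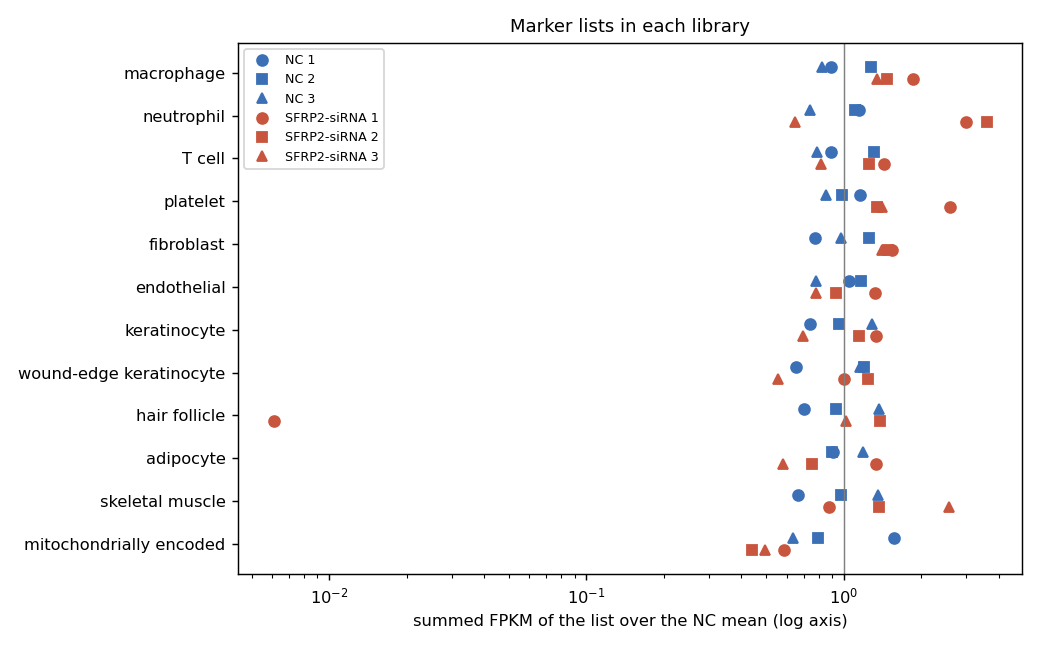
Summed FPKM of each marker list over the mean of the 3 NC libraries (x axis, logarithmic) in the NC libraries (blue) and those labelled SFRP2-siRNA (red), with circle, square and triangle for libraries 1, 2 and 3. In these deposited values the groups do not overlap for macrophage, platelet and fibroblast markers, which are higher, and for mitochondrially encoded genes, which are lower. The hair follicle list falls far to the left in SFRP2-siRNA library 1.

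The genes most like each of the 9 were taken as the 2 with the highest Pearson r of log2(FPKM + 1) over the 6 libraries, among the 8109 or 8110 other genes at a mean of at least 5 FPKM. The 6 points share their libraries and scaling, so r is given as a description. Tgfb1 was most like Cd68, a macrophage lysosome protein (r = 0.995), and Csf2ra, a receptor chain for GM-CSF (r = 0.993). Tgfbr2 followed C1qa, a complement chain made by macrophages (r = 0.998), and Vcan, a matrix proteoglycan (r = 0.994). Tgfbi followed Hk3, a hexokinase of myeloid cells (r = 0.998), and F10, coagulation factor X (r = 0.994). For the others the nearest genes were Rpl15-ps3 and Tnfaip6 for Tgfb2 (0.975 and 0.974), Polr2a and Aif1l for Tgfb3 (0.996 and 0.995), Ric1 and Rab3gap2 for Tgfbr1 (0.998 and 0.997), Tgoln1 and Steap4 for Inhba (0.987 and 0.984), Ssr1 and Nfkb1 for Fst (both 0.998), and Fam214b and Sdf2 for Smad7 (0.986 and 0.984). With 6 libraries a high r is common: the number of genes above 0.9 was 30 for Tgfb2, 36 for Inhba, 135 for Smad7, 154 for Tgfb3, 307 for Tgfb1, 478 for Tgfbr2, 564 for Tgfbi, 789 for Fst and 804 for Tgfbr1.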

How the data were processed

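Per the labels, total RNA of 6 wound tissues was made into paired-end mRNA libraries. The submitters' processing notes name HISAT2, featureCounts and Subread, and the genome build and annotation were not given in the sources used here. The authors deposited one table of FPKM values, and 0 columns of other samples were in it. Gene symbols matched 32582 of 33184 Ensembl IDs. With GENCODE vM21 exon lengths, the FPKM steps gave whole reads (within 0.02 of a read) for 96.5% of genes, which set the depth. Of values of 1 to 20 reads, 64.6% were even, so mates were counted singly.

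Values were analysed on the log2(FPKM + 1) scale from the deposited FPKM, so differences of low genes come out too small. Genes averaging 0.5 FPKM or more over the libraries were kept. As FPKM are not counts, limma 3.58.1 in R 4.3.3 was run with the study's thresholds, an adjusted p under 0.05 and more than 1 in absolute log2 fold change (trend, two-sided, Benjamini-Hochberg over the 16005 genes kept). The script was tested on simulated data. Single values were compared by an exact permutation test. The 9 genes, the 7 pathway lists, the 12 marker lists and the tests were chosen with earlier results of these data known. The genes named are the 9, Sfrp2, up to 4 genes a pathway list that stood apart with an absolute log2 fold change of at least 0.5, the 2 most alike genes for each, and others named as chosen after their values were seen. Alternatives were other scalings, pseudocounts and filters, a replicate block, a fit on recovered reads (limma-voom) and leaving out each library. Replicate numbers did not pair the libraries. Inhbc, Gp1bb and Krt85 of the lists were not matched and are not analysed here.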

Additional observations from a re-analysis of the deposited data

How the results depend on the processing

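No gene and none of the 9 was called under any of the 16 alternatives of the limma fit. Under equal sums without mitochondrially encoded genes, median-of-ratios scaling and quantile normalization, genes standing apart and higher numbered 743, 886 and 980 against 2226 in the deposited values, the 9 genes standing apart 1, 0 and 0 against 3, and all pathway genes standing apart 7, 8 and 7 against 15. Genes standing apart and lower numbered 1227 under median-of-ratios scaling, 1020 under quantile normalization and 1027 with no filter on low values, against 628. Under these 3 scalings the log2 fold change was -0.014, -0.054 and -0.056 for Inhba and -0.016, -0.057 and -0.044 for Smad7. The cause was not tested. The summed TGF-beta ligands differed by 5.63 FPKM as deposited and by 3.44 FPKM under median-of-ratios scaling, and this sum was added after seeing the data.

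Leaving out 1 library at a time gave 2517 to 4645 genes apart and higher, 884 to 1275 apart and lower, 3 to 6 of the 9 genes apart (6 without NC library 2) and 18 to 30 pathway genes apart (30 without NC library 2), since fewer libraries separate more easily. Log2 fold changes then ran from -0.15 to 0.33 for Inhba and from -0.062 to 0.24 for Smad7. Log2 ratio differences ran from -0.16 to 0.26 for Tgfb1 to Tgfb2, from -0.22 to 0.31 for Tgfb1 to Tgfb3, from -0.35 to 0.016 for Tgfbr1 to Tgfbr2, from -0.64 to -0.26 for Inhba to Fst, from 0.35 to 0.73 for Tgfbi to Tgfb1 and from -0.50 to 0.020 for Smad7 to Tgfbr1. The log2 fold changes of the other 7 genes stayed above 0 under every alternative that could fit them, and Tgfb2 could not be fitted with the filter at 2 FPKM. A group left with 2 libraries shares the spread estimate of the other.

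For each gene, the deviation of a library from its group mean was taken. Between same-numbered libraries these deviations had correlations of -0.05, -0.15 and 0.38, so the labels' numbers were not taken as a pairing. With the replicate block, 0 genes and 0 of the 9 were called, and the lowest adjusted p among the 9 was 0.410. The voom fit on recovered reads tested 15554 genes and called 0, with 1491 at an unadjusted p under 0.05. On the log2(FPKM + 1) scale Tgfb2, with 372 to 697 reads, had the smallest SE of the 9 (0.13). Tgfbi, with 8633 to 31678 reads, had the largest (0.36). That scale shrinks the difference and the spread of low genes, so these SEs cannot show how read number bears on precision. With a pseudocount of 0.1 in place of 1, the log2 fold change of Tgfb2 was 0.39 against 0.27, and that of Tgfbi 0.97 against 0.96.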
